A study of Mus musculus with 60 samples.

Results

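The comparison described here was Sh2b3 knockout against wild type CD8 T cells after 6 h of stimulation through the T cell receptor and CD28. It was chosen by genotype and time in the sample labels and holds 10 of the 60 libraries of the series, 5 wild type and 5 knockout. Both groups came from NOD mice, the strain that develops autoimmune diabetes spontaneously, and both carried the OT-I transgene, a T cell receptor that recognises an ovalbumin peptide. The wild type group is labelled Sh2b3+/+ and the knockout group NOD Sh2b3 -/-. The labels do not give the animals' ages or whether each library is a separate animal, so p-values measure only the spread between libraries. Purified naive CD8 T cells, taken from spleen by negative selection, were cultured in wells coated with antibody to CD3 at 10 µg/mL, and antibody to CD28 was added to the medium at 5 µg/mL. The protocol text describes this stimulation for 24 h and the series design gives the 6 h time. Polyadenylated RNA was sequenced, and RNA was isolated with either of 2 kits (Qiagen RNeasy or Zymo Quick-RNA Microprep), with no record of which library had which.

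SH2B3, also called LNK, is an adaptor protein with an SH2 domain that binds activated cytokine receptors and JAK kinases and dampens their signal. Common gamma chain cytokines such as IL-2, IL-7 and IL-15 signal through JAK1, JAK3 and STAT5 in T cells. Interferon gamma signals through JAK1 and JAK2, and its target genes often carry a DNA element called GAS in their promoters. In CD8 T cells the first hours after receptor engagement bring a burst of NFAT, AP-1 and NF-kB target genes, then MYC-driven growth, before the first division.

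Total counts were 15722183 to 20887242 reads per library, with 1.44 to 1.93% of reads on the mitochondrial genome. Knockout replicate 3 stood apart. In it 103 of 9226 genes were over 2-fold above the highest of the other 9 libraries and 70 were over 2-fold below the lowest. For any other library those counts were at most 6 and 7. Differences at 6 h are therefore given with and without that library. The OT-I beta chain segment, Trbv12-1, made up 98.7 to 99.5% of reads on beta chain variable segments in 8 libraries. It made up 97.2% in knockout replicate 3 and 92.7% in knockout replicate 5, where its level was 317.7 and 197.6 CPM (counts scaled to the library total after TMM normalisation) against 462.5 to 642.9 CPM elsewhere. Results were also computed without both of these libraries, a choice made after seeing the data. Knockout libraries whose label numbers were 20 and 10 lower had shares near these at 0 and 2 h, at 96.7 and 96.6% for the number series of replicate 3 and at 89.6 and 89.7% for that of replicate 5. Markers of the labelled cell type were present, with Cd8a at 413.0 to 534.0 CPM. Summed markers of monocytes and macrophages reached 9.712 CPM at most, those of neutrophils 2.199 CPM, and those of B cells 202.1 to 438.7 CPM. In bulk RNA, fewer cells of a type and less RNA per cell cannot be told apart.

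Very few genes passed the test at 6 h. With all 10 libraries 4 of 13082 genes (0.0306%) passed an adjusted p of 0.05 in edgeR's quasi-likelihood test with Benjamini-Hochberg adjustment, 2 higher (0.0153%) and 2 lower (0.0153%) in the knockout. Without knockout replicate 3 there were 5 of 13369 (0.0374%), 3 higher (0.0224%) and 2 lower (0.015%), and 3 genes were in both sets. Without replicates 3 and 5 there were 7 of 13648 (0.0513%). At an unadjusted p under 0.05 the counts were 743 genes (5.68%) with all libraries and 1123 (8.4%) without replicate 3. DESeq2 called 28 and 41 genes in these same libraries.

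Sh2b3 itself fell in the knockout, as its label requires. Its level in the 5 wild type libraries was 95.05, 110.9, 111.4, 123.4 and 128.0 CPM, and in knockout replicates 1 to 5 it was 16.84, 20, 23.68, 26.39 and 14.50 CPM. The groups did not overlap, and knockout replicate 3 lay within its group. The log2 difference was -2.50 ± 0.16 (SE, edgeR adjusted p = 6.8e-06), and -2.56 ± 0.17 without replicate 3. The ratio of knockout to wild type was 0.176. Which exons the knockout allele lacks is not stated in the labels, so these residual reads do not show whether any protein could be made.

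The gene next to Sh2b3 in annotation order on chromosome 5, 1700008B11Rik, is annotated as an antisense transcript and also fell. It was at 0.545, 1.20, 1.20, 1.59 and 0.760 CPM in wild type and had no reads in knockout replicates 1, 2 and 3, with 0.0458 and 0.0516 CPM in replicates 4 and 5. The adjusted p was 0.0261 with all libraries and 0.0732 without replicate 3, and the fitted fold of a gene so near 0 depends on the prior count. Whether counting used strand is not given in the sources used here, so its reads and those of a gene on the other strand could not be told apart. The neighbour on the other side of Sh2b3, Atxn2, an RNA-binding protein gene, was at 63.7 to 68.4 CPM in wild type and 81.4 to 106.6 CPM in the knockout. That log2 difference of 0.45 ± 0.09 had an edgeR adjusted p of 0.229, and it was 0.45 without replicate 3. DESeq2 called Atxn2 with all libraries (adjusted p = 0.000949) and without replicate 3 (0.00888). With all libraries limma voom also called it (adjusted p = 0.0264). In a list of genes around Sh2b3 that leaves out Sh2b3 and 1700008B11Rik, 28 were tested with all libraries. Of these, Atxn2 and the actin nucleation gene Arpc3 were higher and the acyl-CoA dehydrogenase gene Acad10 lower at an unadjusted p under 0.05, where 3.1% of all genes were higher and 2.58% lower. The median log2 difference of the list was 0.02. Without replicate 3, 2 of 28 were higher and 0 lower, against 4.59 and 3.81% of all genes, with a median of 0.04. Arpc3 and Acad10 were named after their values were seen.

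**Figure D1:**
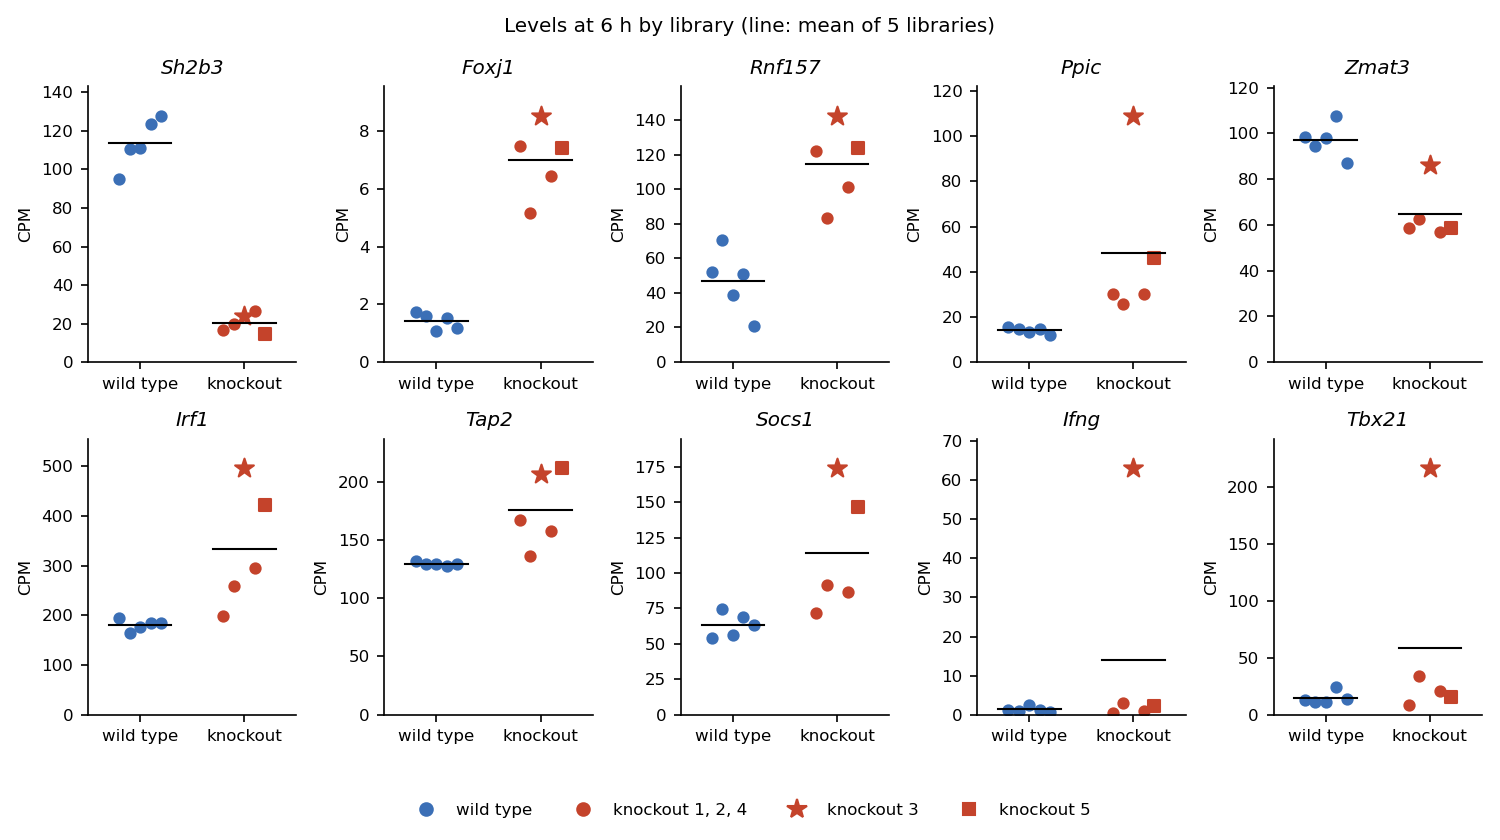
Level of 10 genes in each of the 10 libraries at 6 h, in CPM on linear axes from 0. Black lines are means of 5 libraries. Sh2b3, Foxj1, Rnf157, Ppic, Zmat3, Irf1 and Tap2 separate the genotypes in every library, and knockout replicate 3 (star) stands alone in Ppic, Ifng and Tbx21.

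Foxj1 rose in the knockout. It encodes a forkhead transcription factor best known as the master regulator of motile cilia and described in T cells as a restraint on activation. Its level was 1.73, 1.58, 1.08, 1.53 and 1.17 CPM in the wild type libraries and 7.49, 5.18, 8.55, 6.46 and 7.43 CPM in knockout replicates 1 to 5. The lowest knockout library was 5.18 CPM and the highest wild type library 1.73 CPM. The log2 difference was 2.27 ± 0.23 (edgeR adjusted p = 8.42e-04), a ratio of 4.84, with 5 of 5 knockout libraries above all wild type libraries. Leaving out replicate 3 gave 2.19 ± 0.25 (adjusted p = 0.00181), and leaving out replicates 3 and 5 gave 2.15 (adjusted p = 0.00669). Before stimulation Foxj1 was near 0 in both genotypes, at 0 to 0.760 CPM in wild type and 0 to 0.577 CPM in the knockout. At 2 h it was at 0.613 to 2.82 CPM in wild type and 2.02 to 4.70 CPM in the knockout, and these ranges overlapped. Between 0 and 6 h its log2 change was 2.00 in wild type and 4.97 in the knockout.

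Of the 10 tested genes that follow Foxj1 on chromosome 11, Rnf157 and Ubald2 were higher in the knockout at an unadjusted p under 0.05. Among all genes 3.1% were so. For the 10 tested genes before Foxj1 the smallest unadjusted edgeR p was 0.0672, for a gene lower in the knockout. At the adjusted threshold edgeR called neither Rnf157 nor Ubald2. DESeq2 called Rnf157 with all libraries (adjusted p = 0.00046) and not without replicate 3. Rnf157, a ubiquitin ligase gene, is the next tested gene in annotation order. It was at 52.4, 70.9, 38.6, 50.8 and 21.1 CPM in wild type and 122.0, 83.5, 142.6, 101.5 and 123.8 CPM in the knockout, with no overlap (log2 difference 1.27 ± 0.25, p = 2.85e-04 and adjusted p = 0.339 in edgeR), and the difference was 1.18 without replicate 3. Ubald2 lies 3 steps away and was named after its values were seen. Its level was 32.5 to 86.5 CPM in wild type and 85.6 to 123.5 CPM in the knockout, so that the ranges overlapped (0.82 ± 0.22, adjusted p = 0.683, and 0.79 without replicate 3). Exoc7, an exocyst subunit gene on the other side of Foxj1, had a log2 difference of 0.02 ± 0.09. At 24 h without anti-IL-2 antibody Rnf157 (1.02 ± 0.17, edgeR adjusted p = 0.016) and Ubald2 (0.53 ± 0.11, adjusted p = 0.0466) were among the 48 of 12906 genes (0.372%) called, while Foxj1 did not pass the filter on low counts there. Over the 10 libraries the genes whose log2 level was most like that of Foxj1 among 9225 compared were Ufd1 (Pearson r = 0.966), Atxn2 (0.938), Pxn (0.931), Lysmd2 (0.922) and Phospho2 (0.916). Within the 5 wild type libraries the r of these genes, in the same order, was 0.855, 0.882, 0.509, 0.823 and 0.886. Within the 5 knockout libraries it was 0.21, 0.317, 0.76, 0.567 and 0.689. The 10 points share the genotype difference.

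**Figure D2:**
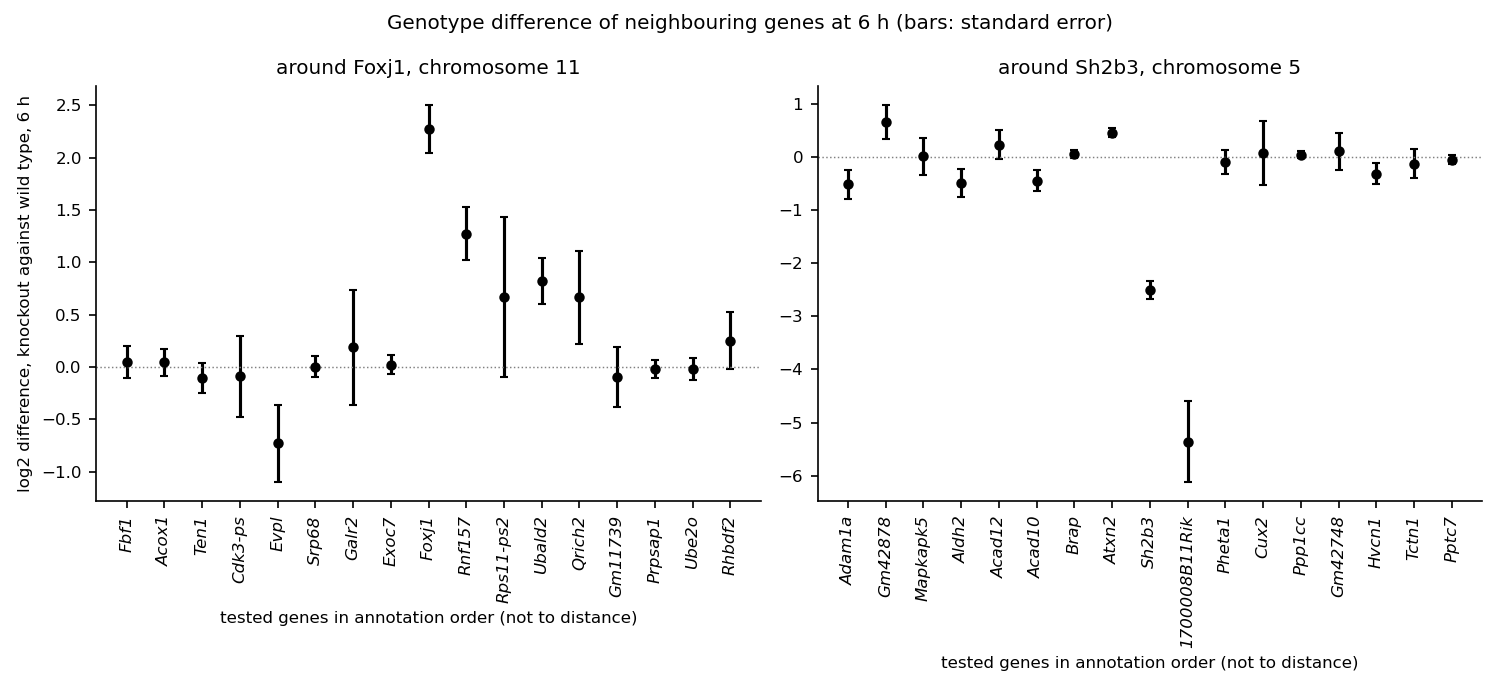
Log2 difference at 6 h (knockout against wild type, 10 libraries, bars are standard errors) for tested genes in annotation order around Foxj1 and Sh2b3. Spacing is by order, not distance. Foxj1, Rnf157 and Ubald2 lie together at 2.27, 1.27 and 0.82 while Exoc7 is at 0.02.

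Other genes had a difference at 6 h of the same sign as before stimulation. Calls at 0 and 2 h were 5 (0.0343%) and 13 (0.0891%) of 14593 genes. The annotated pseudogene Gm6472 on the X chromosome is one of them. It was at 3.98 to 6.44 CPM in wild type and at 179.8, 176.7, 192.1, 304.6 and 173.4 CPM in knockout replicates 1 to 5. Its log2 difference was 5.23 ± 0.20 (edgeR adjusted p = 2.53e-08) at 6 h, beside 4.99 at 0 h and 4.83 at 2 h. Reads on a pseudogene can come from a near-identical gene, so its identity is uncertain. Slc15a2, a peptide transporter gene, was at 50.4, 20.3, 13.6, 20.9 and 38.9 CPM in wild type and 143.2, 98.4, 97.8, 94.7 and 143.5 CPM in the knockout. The groups did not overlap at 6 h, and the log2 differences were 1.89, 2.04 and 1.97 at 0, 2 and 6 h. The edgeR adjusted p was 0.0379, 0.00783 and 0.107 at these times. Without replicate 3 the 6 h difference was 2.03 for Slc15a2 and 5.25 for Gm6472. At 24 h the Slc15a2 difference was -0.93 (adjusted p = 0.586). Ufd1, a cofactor of the p97 segregase in protein degradation, had 0.37, 0.35 and 0.43 with adjusted p of 0.0119, 0.0128 and 0.187, and 0.40 at 6 h without replicate 3. Mid1, a microtubule-bound ubiquitin ligase gene on the X chromosome, had 1.41, 2.02 and 2.36 with adjusted p of 0.53, 0.0484 and 0.229, and 2.419 at 6 h without replicate 3. Mid1 in knockout replicate 4, at 46.8 CPM, was above the 8.15 to 17.4 CPM of the other knockout libraries, and that replicate was also the highest for Gm6472. Trappc12, a vesicle tethering gene on chromosome 12, was at 59.2 to 69.2 CPM in wild type and 45.7 to 51.6 CPM in the knockout (log2 difference -0.44 ± 0.08, adjusted p = 0.201), and -0.43 without replicate 3, beside -0.34 at 0 h (adjusted p = 0.113), -0.50 at 2 h (adjusted p = 6.13e-04) and -0.65 at 24 h (adjusted p = 0.0197). The adjusted p-values at 6 h in this paragraph are from edgeR. With all libraries DESeq2 called Slc15a2 (adjusted p = 4.43e-08), Ufd1 (9.06e-05), Mid1 (7.94e-06) and Trappc12 (0.000236) at 6 h. Without replicate 3 it called each of them again.

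Ppic, the gene of the peptidyl-prolyl isomerase cyclophilin C, was called by edgeR when knockout replicate 3 was left out and not with all libraries. DESeq2 called it with all libraries (adjusted p = 0.000139) and without replicate 3 (6.37e-09). Its level was 15.4, 14.8, 13.4, 14.5 and 11.9 CPM in wild type and 30.1, 25.7, 109.1, 30.3 and 46.0 CPM in knockout replicates 1 to 5. The groups did not overlap with or without replicate 3, but that library was over 2-fold above every other. The log2 difference was 1.76 ± 0.36 with it (edgeR adjusted p = 0.349) and 1.21 ± 0.16 without it (adjusted p = 0.00577). At 0 and 2 h it was 1.72 and 1.36, values that include the knockout libraries of the number series of replicate 3. Those libraries stood at 122.5 CPM at 0 h and 116.9 CPM at 2 h. The other knockout libraries were at 18.8 to 34.9 CPM at 0 h, above wild type at 12.7 to 15.6 CPM. At 2 h they were at 24.6 to 49.2 CPM and overlapped wild type at 15.8 to 26.9 CPM. At 24 h the log2 difference was 0.76 ± 0.15 (adjusted p = 0.034). Nt5e, which encodes the ectoenzyme CD73, had its largest difference of these times at 0 h. It was at 12.4 to 18.8 CPM in wild type and 22.8 to 44.4 CPM in the knockout at 6 h (log2 difference 0.79 ± 0.18, edgeR adjusted p = 0.518) and 0.78 without replicate 3, beside 1.31 at 0 h (adjusted p = 0.0119) and -0.52 at 24 h (adjusted p = 0.317). DESeq2 called Nt5e at 6 h with all libraries (adjusted p = 0.0239) and without replicate 3 (0.0402). With no filter on low counts and without replicate 3 edgeR called it too (adjusted p = 0.000733).

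**Figure D3:**
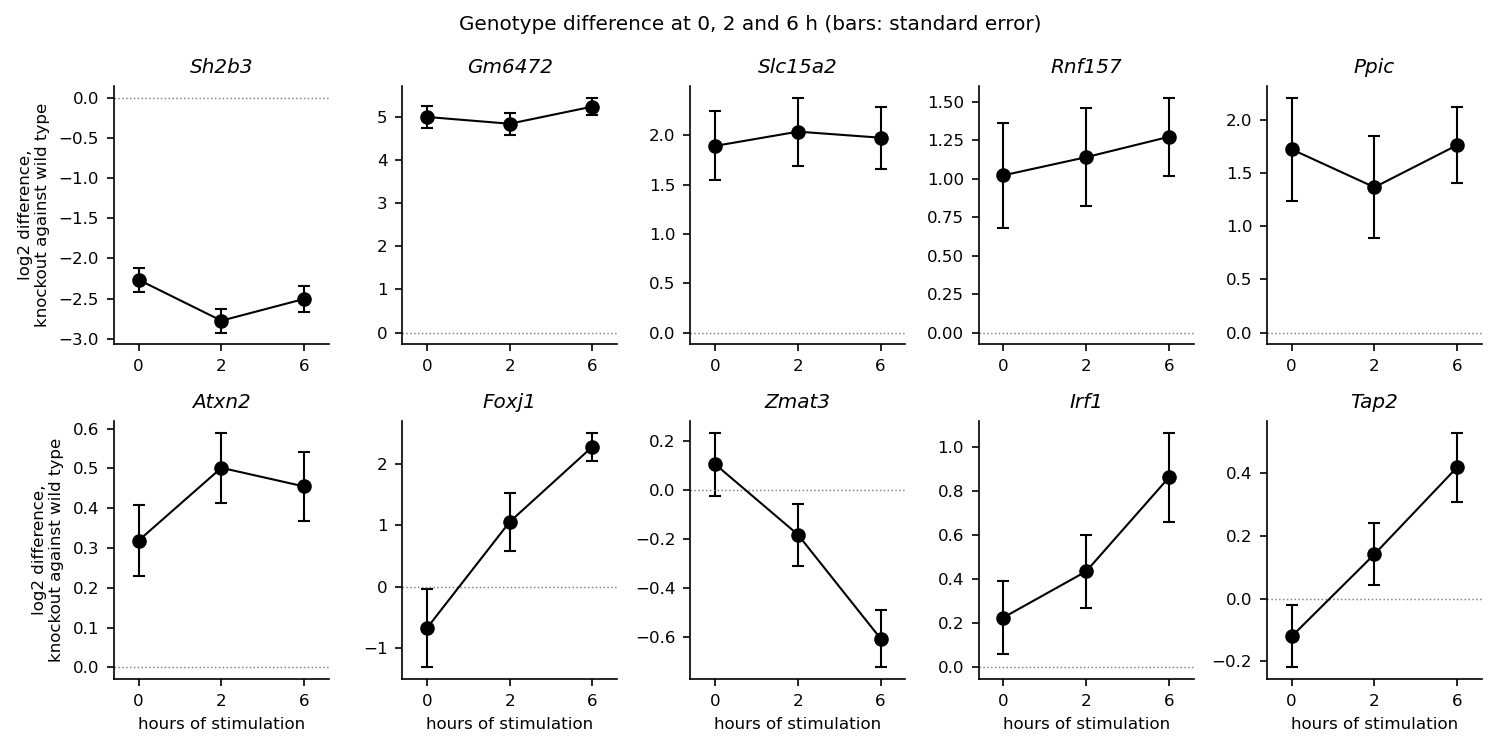
Log2 difference between knockout and wild type at 0, 2 and 6 h for 10 genes, each panel with its own axis and bars of 1 standard error. The values at 0 and 2 h come from a fit over 30 libraries and those at 6 h from the 10 libraries of that time. Sh2b3, Gm6472, Slc15a2, Rnf157, Ppic, Atxn2 and Irf1 keep the same sign at every time. From 0 to 6 h the difference changed by 2.97 for Foxj1, -0.69 for Zmat3, 0.66 for Irf1 and 0.56 for Tap2. For Sh2b3, Gm6472, Slc15a2, Rnf157, Ppic and Atxn2 it changed by -0.22, 0.25, 0.11, 0.27, 0.06 and 0.15, also away from 0. These changes are from the 30-library fit. In edgeR 0 genes passed the interaction test for 6 against 0 h.

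Zmat3, an RNA-binding protein gene switched on by p53, was lower in the knockout with and without replicate 3. With its filter on low counts edgeR called it only once that library was left out. The wild type libraries were at 98.2, 94.6, 98.1, 107.8 and 87.0 CPM and knockout replicates 1 to 5 at 58.8, 62.4, 86.2, 56.8 and 58.8 CPM. The 4 other knockout libraries were nearly level, while replicate 3 came within 1 CPM of the lowest wild type library. The log2 difference was -0.61 ± 0.12 with all libraries (edgeR adjusted p = 0.229) and -0.74 ± 0.09 without replicate 3 (adjusted p = 0.00188). Without replicates 3 and 5 it was -0.72 (adjusted p = 0.00669). With all libraries Zmat3 was called by DESeq2 (adjusted p = 0.00343), limma voom (0.00435) and edgeR with no filter on low counts (0.0282). Zmat3 is a gene that stimulation raised in both genotypes, by 2.3 on the log2 scale in wild type and 1.61 in the knockout between 0 and 6 h, times between which 50% of 14593 genes were called in wild type and 49.6% in the knockout. At 0 h it was at 16.7 to 26 CPM in wild type and 17.7 to 26.7 CPM in the knockout.

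Other p53 target genes lay lower in the knockout as well. Of 26 tested members of a p53 target list, 0 were higher and 4 lower at an unadjusted p under 0.05 with all libraries, where 3.1% of all genes were higher and 2.58% lower. Without replicate 3, 13 of 26 were lower and 0 higher, against 3.81 and 4.59% of all genes. In edgeR with its filter on low counts Zmat3 was the 1 member called in this fit. With no filter edgeR also called Gtse1 (adjusted p = 0.00625), Phlda3 (0.00988) and Ccng1 (0.0274). DESeq2 without replicate 3 also called Gtse1 (adjusted p = 0.0231), Trp53inp1 (0.0231), Phlda3 (0.0434) and the cyclin G1 gene Ccng1 (0.0465). The median log2 difference of the list was -0.10 with all libraries, -0.30 without replicate 3 and -0.24 without replicates 3 and 5, when 9 of 26 were lower against 2.35% of all genes. The median over all genes tested was within 0.01 of 0 in each of these fits. Trp53inp1, a p53-induced regulator of autophagy and death, was at 701.0 to 769.0 CPM in wild type and 588.2 to 665.8 CPM in all 5 knockout libraries (-0.25 ± 0.07, edgeR adjusted p = 0.696, and -0.27 without replicate 3). Phlda3, an inhibitor of AKT, was at 21.7 to 34.8 CPM in wild type, at 13 to 20.3 CPM in 4 knockout libraries and at 36.1 CPM in replicate 3. Gtse1, a regulator of p53 in G2, was at 28.4 to 46.4 CPM in wild type and 11.1 to 25.5 CPM in those 4 libraries, with 51.3 CPM in replicate 3. Cdkn1a, which encodes the cell cycle inhibitor p21, spread most. It ran from 65.5 to 126.4 CPM in wild type and stood at 34.7, 90.8, 221.2, 54.7 and 29.8 CPM in knockout replicates 1 to 5. Trp53 itself had a log2 difference of -0.04 with all libraries. Phlda3, Gtse1, Ccng1, Cdkn1a and Trp53 were named after their values were seen.

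The level of early T cell receptor response genes moved with these values in part. Their summed level was 6638 to 9461 CPM in wild type and 4641, 9980, 14070, 8206 and 4989 CPM in knockout replicates 1 to 5. Replicates 1 and 5 were below every wild type library and replicates 2 and 3 above. Zmat3 was as low in replicates 2 and 4, at 62.4 and 56.8 CPM, as in replicates 1 and 5. Cdkn1a had nearly the same order over the knockout libraries as the early response sum, and the part of that sum in the p53 target values was not tested.

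**Figure D4:**
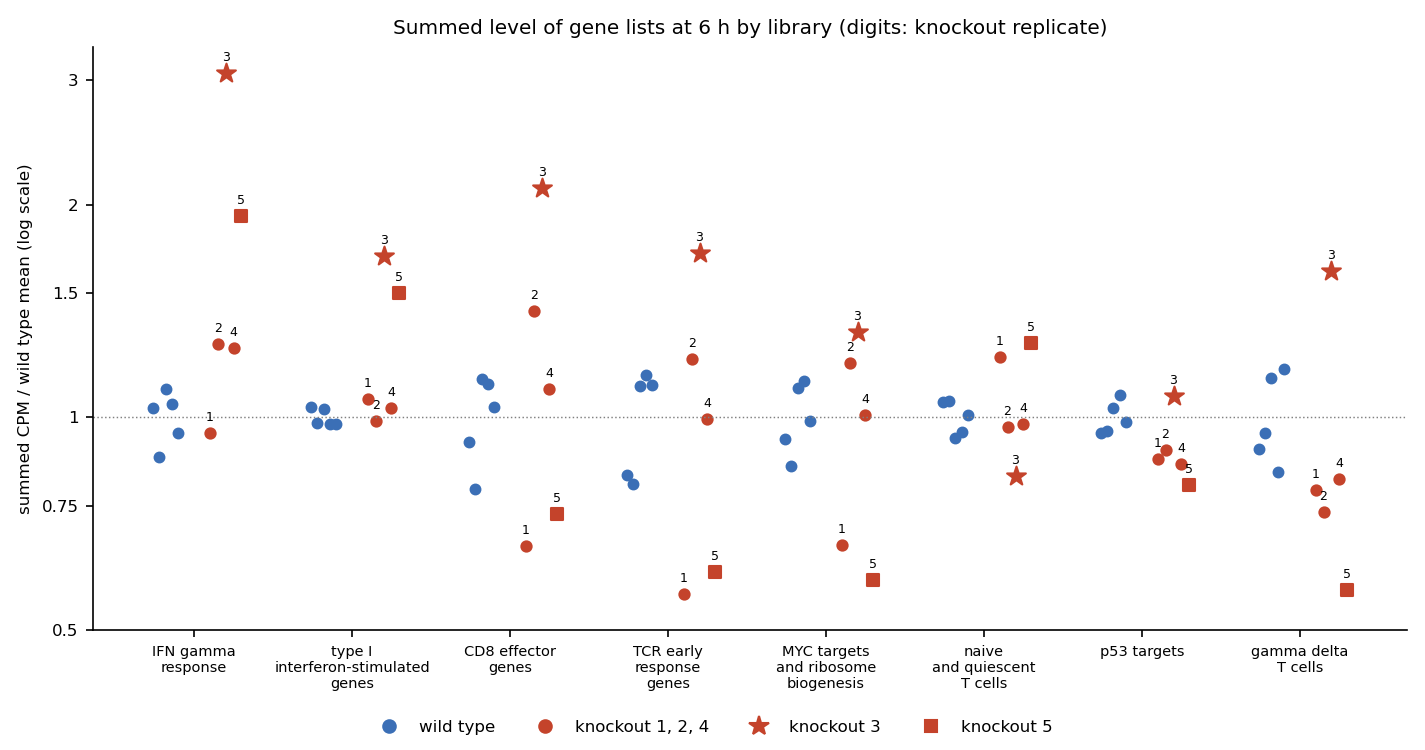
Summed CPM of 8 gene lists in each library at 6 h, divided by the wild type mean of that list, on a log axis. Digits give the knockout replicate. Replicates 3 and 5 hold the highest interferon lists, replicates 1 and 5 the lowest T cell receptor and MYC lists, and 4 of 5 knockout libraries lie below wild type in the p53 list.

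Interferon gamma response genes were the list with the most members higher in the knockout at an unadjusted p under 0.05, and the size of the difference depended on knockout replicates 3 and 5. Of 39 tested members, 28 were higher at an unadjusted p under 0.05 and 0 lower with all libraries, against 3.1% of all genes higher. With its filter on low counts edgeR called 0 of them at the adjusted threshold, with or without replicate 3. With no filter and without replicate 3 it called Tap1 (adjusted p = 0.0336). DESeq2 called Irf1 with all libraries and without replicate 3. The list's median log2 difference was 0.83 with all libraries, 0.42 without replicate 3 and 0.23 without replicates 3 and 5. The members higher at an unadjusted p under 0.05 numbered 28, 23 and 8 in these fits, against 3.1, 4.59 and 2.83% of all genes. Summed over the list, wild type libraries stood at 4725, 4038, 5031, 4795 and 4355 CPM. Knockout replicates 1 to 5 stood at 4354, 5835, 14090, 5752 and 8835 CPM, so replicate 1 lay inside the wild type range and the other 4 above it.

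Irf1, a transcription factor induced early by interferon gamma, was at 194.1, 164.3, 176.4, 185.5 and 185.2 CPM in wild type and 198.4, 259.0, 496.0, 295.1 and 422.0 CPM in the knockout. The groups did not overlap, although replicate 1 was only just above. Its log2 difference was 0.86 ± 0.20 (edgeR adjusted p = 0.518), then 0.68 ± 0.16 without replicate 3 and 0.47 without replicates 3 and 5. Tap1 and Tap2, the subunits of the peptide transporter for MHC class I, did not overlap either. Tap2 was tight in wild type at 127.6 to 132.2 CPM and reached 166.8, 136.3, 206.7, 157.7 and 211.6 CPM in the knockout (0.42 ± 0.11, adjusted p = 0.683, and 0.35 without replicate 3). Irf1, Tap1 and Tap2 were 3 of 39 list members with all knockout libraries above wild type, where 0.757% of all genes were so ordered. The immunoproteasome genes Psmb8 and Psmb10 had log2 differences of 0.38 ± 0.10 and 0.46 ± 0.13, which were 0.36 and 0.42 without replicate 3 and 0.33 and 0.39 without replicates 3 and 5. Gbp2, which encodes a guanylate binding GTPase of cell-autonomous defence, was highest in replicates 3 and 5. It was at 176.8 to 265.9 CPM in wild type and 180.3, 350.3, 1705, 270.2 and 571.1 CPM in the knockout, and its log2 difference went from 1.41 to 0.57 and then 0.23 as replicate 3 and then replicate 5 were left out.

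Type I interferon-stimulated genes had 15 of 51 tested members higher and 1 lower at an unadjusted p under 0.05 with all libraries, against 3.1 and 2.58% of all genes. Without replicate 3 the list had 7 higher and 0 lower, against 4.59 and 3.81%, and without replicates 3 and 5 it had 2 higher and 2 lower, against 2.83 and 2.35%. Its median was 0.35, 0.22 and 0.04 in these fits. Ifng itself was at 0.760 to 2.56 CPM in wild type and 0.446, 2.88, 63.1, 0.916 and 2.32 CPM in the knockout. Only replicate 3 was high, and without it the log2 difference was 0.24 ± 0.55. Replicate 5 had the second highest interferon gamma response sum with Ifng inside the range of the remaining libraries. Ifngr1, the ligand-binding receptor chain, was at 339.9 to 411.9 CPM in wild type and 655.0, 421.9, 448.6, 446.4 and 568.4 CPM in the knockout, without overlap (0.42 ± 0.12, adjusted p = 0.691, and 0.46 without replicate 3). With no filter on low counts and without replicate 3 edgeR called Ifngr1 (adjusted p = 0.00282). Of 15 tested interferon gamma inducers and receptors, 8 were higher at an unadjusted p under 0.05 with all libraries, 5 without replicate 3 and 4 without replicates 3 and 5, against 3.1, 4.59 and 2.83% of all genes.

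**Figure D5:**
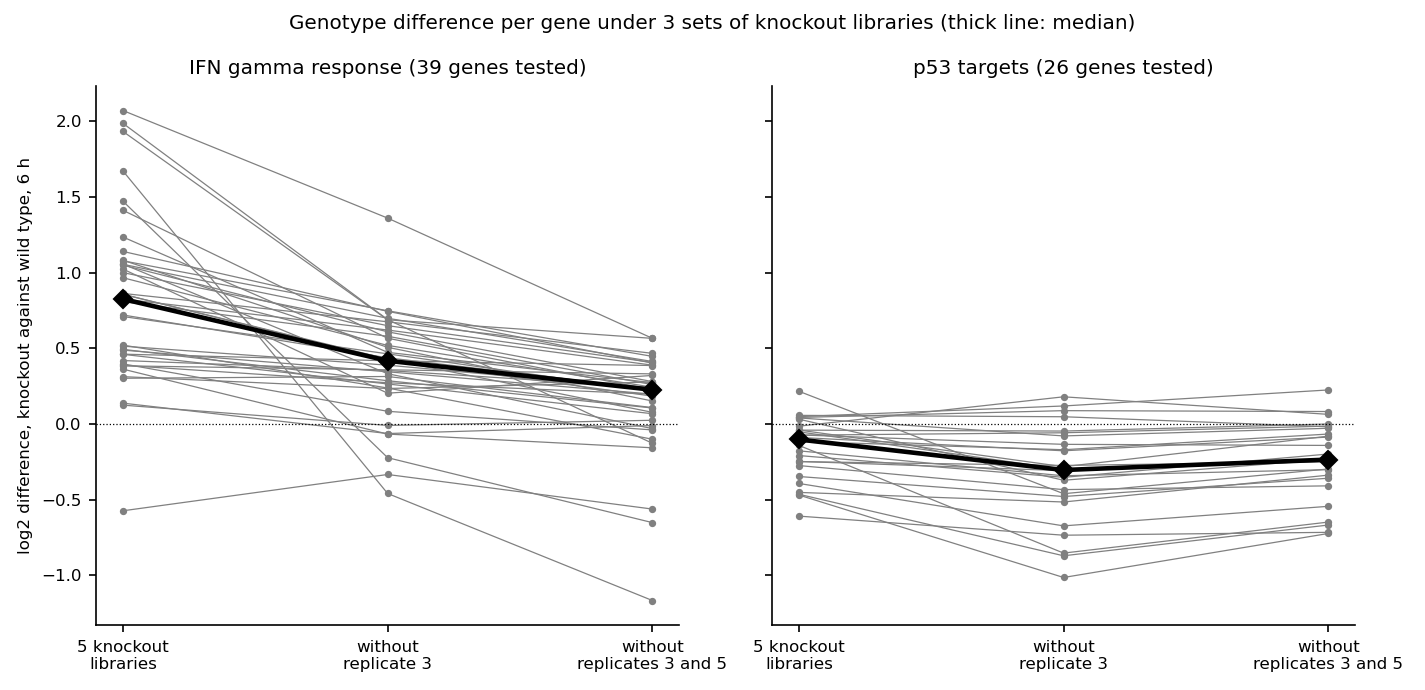
Log2 difference at 6 h for each tested member of the interferon gamma response and p53 target lists, fitted with 5 knockout libraries, without replicate 3, and without replicates 3 and 5. Thin lines are genes and the thick line is the median, which goes 0.83, 0.42, 0.23 in the first list and -0.10, -0.30, -0.24 in the second.

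The promoters of these genes were read for the GAS element to show the sequence through which STAT dimers act. The motif searched was TTCNNNGAA, which reads the same on both strands, in the 250 bases before each RefSeq start (build GRCm38.p6, another build than that of the counts). It was present for 11 of 27 tested interferon gamma response genes that had a promoter in the table (40.7%), and for 7.15% of 9361 tested genes that had one. Of 14 tested SH2B adaptor and JAK brake genes with a promoter in the table, only Socs3 had a match. Of 19 tested p53 targets with a promoter there, only Fas did. Of 23 tested IL-2 and STAT5 targets with a promoter there, 4 had a match (17.4%), Socs3 among them. Below are the windows for Irf1 (chr11:53769764-53770013, + strand), Irf8 (chr8:120736108-120736357, +), Gbp5 (chr3:142496684-142496933, +) and Socs3 (chr11:117969367-117969616, -), chosen because they are described here and, for Gbp5, after its values were seen, 5′ to 3′ with the matches in capitals.
Irf1: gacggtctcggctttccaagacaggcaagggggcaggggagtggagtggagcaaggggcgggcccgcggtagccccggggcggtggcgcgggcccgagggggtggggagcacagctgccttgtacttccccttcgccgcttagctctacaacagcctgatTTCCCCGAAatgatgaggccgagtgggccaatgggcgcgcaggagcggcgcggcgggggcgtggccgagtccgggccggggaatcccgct
Irf8: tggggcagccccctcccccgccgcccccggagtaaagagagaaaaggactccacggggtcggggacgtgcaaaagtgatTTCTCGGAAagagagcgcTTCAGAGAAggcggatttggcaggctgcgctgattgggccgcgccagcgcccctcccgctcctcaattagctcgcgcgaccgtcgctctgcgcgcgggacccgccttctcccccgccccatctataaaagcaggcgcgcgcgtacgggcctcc
Gbp5: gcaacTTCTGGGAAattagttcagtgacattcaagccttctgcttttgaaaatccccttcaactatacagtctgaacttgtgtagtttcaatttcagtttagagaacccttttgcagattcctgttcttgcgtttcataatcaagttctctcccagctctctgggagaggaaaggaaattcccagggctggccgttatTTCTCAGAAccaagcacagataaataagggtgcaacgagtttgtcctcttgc
Socs3: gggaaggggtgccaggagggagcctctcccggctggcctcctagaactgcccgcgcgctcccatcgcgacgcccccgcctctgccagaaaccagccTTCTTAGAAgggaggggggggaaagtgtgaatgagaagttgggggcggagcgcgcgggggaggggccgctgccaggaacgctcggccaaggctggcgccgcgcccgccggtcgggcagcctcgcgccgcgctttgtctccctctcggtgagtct
A match is a description of the letters and not evidence of binding in these cells. Irf8 and Gbp5 each held 2 matches. Irf8, an interferon-induced transcription factor, was at 32.3 to 60.1 CPM in wild type and 21.5, 92.0, 256.3, 56.9 and 40.8 CPM in the knockout, so it was below the wild type range in replicate 1. Gbp5 had a log2 difference of 1.24 with all libraries, 0.47 without replicate 3 and 0.27 without replicates 3 and 5.

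Feedback inhibitors of JAK signalling were split. Of 20 tested members of the list of SH2B adaptors and brakes on JAK signalling, 3 were higher and 1, Sh2b3, lower at an unadjusted p under 0.05, against 3.1 and 2.58% of all genes. Without replicate 3 there were 2 higher and 1 lower, against 4.59 and 3.81%. The list's median log2 difference was 0.05 with all libraries and 0.06 without replicate 3. Socs3, which blocks gp130-type receptors, was at 26.1 to 34.9 CPM in wild type and 38.1, 36.2, 54.6, 43.9 and 66.1 CPM in the knockout, without overlap (log2 difference 0.62 ± 0.16, p = 0.00178 and adjusted p = 0.667 in edgeR). With no filter on low counts and without replicate 3 edgeR called Socs3 (adjusted p = 0.00988). Socs1, which blocks interferon gamma and common gamma chain receptors, was at 54 to 74.5 CPM in wild type and 71.6, 91.5, 173.9, 86.5 and 146.3 CPM in the knockout. Its replicate 1 lay inside the wild type range (0.83 ± 0.22, adjusted p = 0.683). Without replicate 3 the differences were 0.56 for Socs3 and 0.62 for Socs1, and without replicates 3 and 5 they were 0.36 and 0.39. Cish, the STAT5-induced inhibitor, was at 11.1 to 13.8 CPM in wild type and 11.1, 17.7, 79.0, 14.9 and 14.3 CPM in the knockout, and its log2 difference was 1.13 with replicate 3 and 0.21 without it. Socs2 was too low at 6 h to be tested.

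Among 27 tested IL-2 and STAT5 targets, 5 were higher and 0 lower at an unadjusted p under 0.05 with all libraries, against 3.1 and 2.58% of all genes. Without replicate 3, 2 were higher and 3 lower, against 4.59 and 3.81%. With its filter on low counts edgeR called 0 in either fit, and the medians were 0.10 and -0.01. Il2ra, the high-affinity chain of the IL-2 receptor, was at 145.8, 131.8, 278.9, 251.1 and 227.3 CPM in wild type and 69.0, 206.0, 360.0, 146.0 and 89.5 CPM in the knockout (log2 difference -0.27 ± 0.40, and -0.71 ± 0.33 without replicate 3). The knockout spread reached past wild type on both sides. Il2rb was at 242.3 to 595.8 CPM in the knockout and 299.6 to 382.1 CPM in wild type. Pim1, a survival kinase gene induced by STAT5, had 0.26 ± 0.15 and 0.08 without replicate 3, and Bcl2 had -0.04 ± 0.10 and -0.06. Stat3 was above wild type in all 5 knockout libraries, with 243.6 to 284.7 CPM against 286.1, 308.2, 597.4, 291.2 and 292.4 CPM (0.44 ± 0.19, adjusted p = 0.851, and 0.17 without replicate 3).

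Activation and growth genes separated the knockout libraries from each other more than from wild type. The summed MYC and ribosome biogenesis list was 9453 to 12480 CPM in wild type and 7318, 13260, 14660, 11190 and 6529 CPM in knockout replicates 1 to 5. Of its 40 tested members, 0 were higher and 1 lower at an unadjusted p under 0.05 with all libraries and also without replicate 3, against 3.1 and 2.58% of all genes and then 4.59 and 3.81%. With all libraries 7 members had a log2 difference above 0, and the median was -0.08 against -0.0041 over all genes tested. Without replicate 3, 1 member did, against 48.4% of all genes, and the median was -0.23. Myc was at 317.2 to 494.6 CPM in wild type and 210.9, 581.1, 686.3, 432.2 and 214.6 CPM in the knockout. Naive and quiescence genes ran the other way, with sums of 13810 and 14460 CPM in replicates 1 and 5 against 10610 to 11970 CPM in wild type and 9396 CPM in replicate 3. Replicates 1 and 5 were thus the pair with the lowest early response, MYC and effector sums, while replicate 5 of that pair had the higher interferon gamma response sum, and its Trbv12-1 level was the lowest of the 10 libraries. The type I interferon sum was 3091 CPM in replicate 1 and 4373 CPM in replicate 5, against 2849 to 3013 CPM in wild type.

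Cd28, Id3, Tox and Rnf144a were lower in every knockout library than in any wild type library, and edgeR called none of them at 6 h with its filter on low counts. With no filter and without replicate 3 it called Cd28 (adjusted p = 0.0277). Across all genes 0.474% had every knockout library below wild type. Cd28, the costimulatory receptor engaged in this culture, was at 310.8 to 367.8 CPM in wild type and 243.7, 308.9, 202.2, 274.7 and 205.1 CPM in the knockout (log2 difference -0.49 ± 0.12, edgeR adjusted p = 0.65, and -0.42 without replicate 3). Replicate 2 was just under the lowest wild type library. Id3, an inhibitor of E proteins, was at 108.1 to 123.4 CPM in wild type and 72.5, 105.5, 60.8, 77.4 and 42.6 CPM in the knockout (-0.67 ± 0.19, adjusted p = 0.691, and -0.61 without replicate 3), and it passed at 24 h (-0.73 ± 0.12, adjusted p = 0.0186). Tox, a regulator of exhausted and thymic T cells, had -0.30 ± 0.09 and -0.26 without replicate 3. Rnf144a, a ubiquitin ligase gene on chromosome 12, had -1.39 ± 0.31 (edgeR adjusted p = 0.518) and -1.33 without replicate 3. With all libraries DESeq2 (adjusted p = 0.00602) and limma voom (0.0161) called Rnf144a. Thy1, a surface glycoprotein of T cells, and Ltb, which encodes lymphotoxin beta, were the reverse, above wild type in all 5 knockout libraries at 0.40 ± 0.11 and 0.38 ± 0.10, and at 0.33 and 0.37 without replicate 3.

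The summed level of a gamma delta T cell list, most of it Trdc, was lower in 4 knockout libraries. It was 236.6 to 331.5 CPM in wild type and 161.1 to 231.1 CPM in those libraries. Not every member separated there. Tcrg-C4, at 5.16 to 8.80 CPM, overlapped the wild type range of 7.08 to 18.1 CPM. Cd163l1, at 4.08 to 15.3 CPM, overlapped 4.96 to 15.2 CPM. Trdc, the delta chain constant segment, was at 205.0 to 270.2 CPM in wild type and 187.7, 176.3, 363.1, 194.8 and 140.6 CPM in knockout replicates 1 to 5. It was therefore below wild type in 4 libraries and above it in replicate 3. Its log2 difference was -0.15 with all libraries and -0.43 ± 0.12 without replicate 3 (edgeR adjusted p = 0.495). Of the 10 tested list members, 6 were lower at an unadjusted p under 0.05 and 0 higher without replicate 3, against 3.81 and 4.59% of all genes, and 2 were lower with it, against 2.58%. The gamma delta transcription factor gene Sox13 had -0.44 with all libraries and -1.62 without replicate 3, where DESeq2 called it (adjusted p = 0.0231). At 24 h Trdc passed the adjusted threshold at -0.87 ± 0.10 (edgeR adjusted p = 7.56e-04).

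Knockout replicate 3 held transcripts that were rare in the other 9 libraries, given here as a description of that library. Mmp14, a membrane-bound matrix protease gene, was at 91.0 CPM against 0.292 to 5.73 CPM in the others. Lgals7, a galectin gene of epithelia, was at 102.1 CPM against 0.228 to 6.00 CPM. Axl, a TAM receptor tyrosine kinase gene, was at 73.7 CPM and no higher than 4.49 CPM elsewhere. Tbx21, which encodes the effector transcription factor T-bet, was at 216.4 CPM against 8.46 to 33.9 CPM. The cytokine gene Lif was at 91.7 CPM against 4.01 to 15.2 CPM, and the double-stranded RNA sensor gene Ifih1 at 122.6 CPM against 10.3 to 20.3 CPM. Tubb3 and Marcks were at 0.435 and 0.871 CPM, each below all other libraries. The knockout libraries with label numbers 20 and 10 lower showed the same for Mmp14, at 140.7 CPM at 0 h and 166.2 CPM at 2 h, where the other 4 knockout libraries reached 5.44 and 6.27 CPM. Lgals7 was at 13.7 and 67.4 CPM in those libraries, against at most 0.565 and 2.33 CPM in the other knockout libraries. The 0 h library also lay outside all others for Tbx21 (19.9 CPM), Tubb3 (0.461) and Marcks (0.138). It lay inside the wild type range for Axl (7.84 CPM) and Lif (4.66). For Ifih1 it was at 81.9 CPM, beside 81.7 CPM in the highest wild type library. The 2 h library was above all others for Axl, Lif and Ifih1, at 24.3, 51.1 and 47.8 CPM.

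Whether the genotype difference at 6 h was another than at earlier times was tested as an interaction over the 30 libraries of 0, 2 and 6 h. In edgeR 0 of 14593 genes (0%) passed for 6 against 2 h and 0 (0%) for 6 against 0 h, with 438 (3%) and 635 (4.35%) at an unadjusted p under 0.05. DESeq2 called 1 gene, Dglucy, for 6 against 2 h and 0 for 6 against 0 h. Zmat3 had a difference of differences of -0.69 between 6 and 0 h (edgeR p = 4.93e-04, adjusted p = 0.944) and Foxj1 one of 2.97 (p = 7.25e-04, adjusted p = 0.944). For Tap2 it was 0.56 (p = 3.27e-04, adjusted p = 0.794) and for Irf1 0.66 (p = 0.00871). For Slc15a2 and Gm6472 it was 0.11 (p = 0.82) and 0.25 (p = 0.453) in edgeR.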

How the data were processed

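RNA-seq counts per gene were deposited by the authors as a table of 55414 Ensembl genes. Per the submitters' processing notes, reads were aligned with STAR 2.7.9a to GRCm39 and counted with featureCounts 2.0.1. Symbols and gene order, matched for 52081 genes, came from reference tables of an earlier build, used for names and neighbours only. Raw counts were tested with edgeR 4.0.16 (R 4.3.3): filterByExpr with a minimum count of 10, TMM, and the robust quasi-likelihood F test, p-values adjusted across every tested gene (Benjamini-Hochberg) and calls under 0.05. The procedure was run on simulated data in which no library was made to stand apart, so that run does not cover a library such as knockout replicate 3. CPM levels used TMM factors over the 30 libraries numbered up to 30 (0, 2 and 6 h), and log2 levels a prior count of 2. Differences at 6 h came from its 10 libraries, those at 0 and 2 h and interactions from the 30, and those at 24 h from 10 libraries with the library-number range as a covariate. Alternatives used DESeq2 1.42.0 and limma 3.58.1.

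The comparison, gene lists and tests were chosen with earlier results of these data known. Genes were named by rule: Sh2b3, all calls with and without knockout replicate 3, the 10 of smallest p in each direction with a mean of at least 4 CPM, up to 6 per list by smallest p, the 15 and 8 genes in which knockout replicate 3 was furthest above and below the other libraries, and a fixed set of cytokine and effector genes. Predicted genes, pseudogenes, receptor segments, Xist and Y-linked genes were left out of the p and replicate 3 rules. Ubald2, Cdkn1a, Phlda3, Gtse1, Ccng1, Arpc3, Acad10, Trdc, Trp53, Sox13, Gbp5 and Exoc7 were added after their values were seen, and Trbv12-1 as a check of the transgene. Some genes that the rule names are not reported here. Replicates differed by more than sampling noise. Depth was 15722183 to 20887242 reads per library.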

Additional observations from a re-analysis of the deposited data

Results flagged for a closer look

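Of 66 groups of 5 libraries examined for one library far from the rest of its group at 6 h, 10 had one. The usual rate of about 1 in 20 cannot be set beside this, because the genes and lists were chosen with earlier results known. Knockout replicate 3 was the far library in 7 of the 10. It stood at 86.2 CPM for Zmat3 (others 56.8 to 62.4), 109.1 CPM for Ppic (25.7 to 46.0), 79.0 CPM for Cish (11.1 to 17.7) and 1705 CPM for Gbp2 (180.3 to 571.1). It was also at 63.1 CPM for Ifng (0.446 to 2.88), 216.4 CPM for Tbx21 (8.46 to 33.9) and 455.8 summed CPM for the gamma delta T cell list (161.1 to 231.1). Knockout replicate 4 was at 304.6 CPM for Gm6472 (173.4 to 192.1). In wild type, replicate 4 was at 24.3 CPM for Tbx21 (10.85 to 14.03) and replicate 5 at 123.4 CPM for Id3 (108.1 to 111.1).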

How the results depend on the processing

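No paired analysis was possible because the labels give the genotypes at 6 h no shared replicate number or animal. Sh2b3, Foxj1 and Gm6472 were called at 6 h under every setting run, with or without replicate 3. Gene counts at 6 h were otherwise 28 with DESeq2, 11 with limma voom and 7 without knockout replicates 3 and 5. Without replicate 3 they were 44 with no filter on low counts, 41 with DESeq2 and 3 against a 1.5-fold change, where Zmat3 and Ppic were lost. Leaving out 1 library at a time gave 3 to 5 calls, and 5 to 25 when replicate 3 was also absent, with 25 without knockout replicate 2. 1700008B11Rik lost its call under 9 of the 10 omissions of 1 library. The 6 against 2 h interaction had 1 call with DESeq2 and 0 with library numbers 10 apart as a replicate block, and 0 with each left-out library. With the block the 6 against 0 h interaction also had 0, and Zmat3 had an adjusted p of 0.052. Of 30 pairs of libraries numbered 10 or 20 apart, 13 had correlated deviations above 0.1, and 25 correlated best with their own number. Directions turned for Cdkn1a without knockout replicate 1 (0.064) or 5 (0.0796), where it was -0.14 with all libraries and -0.85 without replicate 3. With replicate 3 absent they turned for Ifng with limma voom (-0.13) or without replicate 2 (-0.17) and for Irf8 without replicate 2 (-0.20). The causes were not tested. Counts of transcripts under about 1 CPM limit 1700008B11Rik and Foxj1 at 0 h.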

Other observations

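Most genes of the G2 and M phases, which stay low before the first division, had a log2 difference above 0 without knockout replicate 3. Their summed level was 158.3 to 263.7 CPM in wild type and 355.0, 237.6, 131.7, 216.1 and 252.9 CPM in knockout replicates 1 to 5. Without replicate 3, 25 of 29 tested members had a log2 difference above 0 (48.4% of all genes did) and 4 were higher and 0 lower at an unadjusted p under 0.05 (4.59 and 3.81% of all genes), with a median of 0.31. With all libraries 1 was higher and 0 lower (3.1 and 2.58% of all genes), and the median was 0.15. edgeR called 0 of them. Ndc80, a kinetochore gene, was at 9.86 to 13.6 CPM in wild type and 14.8 to 21.3 CPM in these 4 libraries, and at 7.13 CPM in replicate 3. Ccr2, a chemokine receptor gene, was at 0 to 0.816 CPM in wild type and 2.49, 2.36, 1.63, 4.90 and 2.53 CPM in the knockout, without overlap (log2 difference 2.68 ± 0.65, edgeR adjusted p = 0.54, and 2.82 without replicate 3). It was low in both groups, and DESeq2 called it with and without replicate 3.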
